A study of Arabidopsis thaliana with 20 samples.

Results

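The genes described are the 9 ATG8 genes of Arabidopsis thaliana, ATG8A to ATG8I, and NBR1. They were taken by gene identifier, with earlier results of these data known, and they make up 10 of the 32833 genes counted. RNA was sequenced from the aerial parts of seedlings in 20 libraries. In the autoimmune lines, constructs carrying a pair of DANGEROUS MIX (DM) genes had been introduced into Col-0, the reference accession. DM genes are loci, many of them immune receptors, whose alleles from different accessions set off autoimmunity when they meet in 1 plant. DM1-DM2d was harvested 12 days after sowing (DAS) with 3 libraries and was set against Col-0 of the same age with 2 libraries. DM6-DM7 was harvested 14 DAS with 3 libraries and was set against Col-0 14 DAS with 3 libraries. The lines DM1-DM2d adr1s (3 libraries) and DM6-DM7 adr1s (3 libraries) carried the same pairs in plants in which ADR1, ADR1-L1 and ADR1-L2 had been knocked out by CRISPR-Cas9, and both were set against Col-0 adr1s, the same triple knockout without a DM pair, with 3 libraries. These 3 genes encode helper receptors that relay signals from many immune receptors. The labels give no separate age for the adr1s groups. Each pairing of lines with their Col-0 group was 1 batch in the labels. All plants grew on sucrose-containing agar medium in long days, and whether a line descends from 1 transformed plant is not given in the sources used here.

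Autophagy delivers cytoplasmic material to the vacuole inside double-membrane vesicles. ATG8 is the small ubiquitin-like protein that coats the growing membrane: the protease ATG4 trims its end behind a glycine, and ATG7, ATG3 and the ATG12-ATG5-ATG16 complex then join that glycine to a membrane lipid. NBR1 is a receptor that binds ubiquitinated cargo and ATG8 together and is itself degraded in the vacuole, and in Arabidopsis autophagy is known for roles in starvation, senescence and immune cell death.

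The ends of the 9 ATG8 coding sequences are shown because they separate the family before any expression value is considered. Each line gives the last 10 codons of the first gene model, stop codon included, 5′ to 3′ on the coding strand, from the RefSeq annotation of TAIR10.1, and capitals mark the codon of the glycine that ATG4 exposes, read as the glycine after the last threonine-phenylalanine.

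ATG8A: aacacttttGGAtctcttaccgttgcttga
ATG8B: aacacatttGGTggatctttctactgctaa
ATG8C: agtggagagaacacctttGGTttggtttaa
ATG8D: ggtgagaacacgttcGGGatcttcttctaa
ATG8E: gagaacacattcGGTgcttcttcaatctaa
ATG8F: gaaaacacatttGGAtttggatctccataa
ATG8G: gaaaacacttttGGAtcgtcaatgacttaa
ATG8H: tgctacagcaccgagaaaactttcGGCtaa
ATG8I: tgctatagcagtgagaaaacctttGGTtga

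In ATG8H and ATG8I the glycine codon lies directly before the stop, so nothing remains for ATG4 to remove. In the other 7 genes 2 to 5 codons follow it. The coding sequences were 348 to 369 bases long. Identity of coding sequences was taken over all columns of each pairwise alignment, gaps included. It was 68.3% to 84.5% among ATG8A to ATG8G (21 pairs, median 71.7%), with ATG8A and ATG8B the most alike. ATG8H or ATG8I against those 7 gave 54.5% to 61.5% (14 pairs, median 58.7%), and ATG8H against ATG8I gave 66.1%. No window of 50 bases was shared between the exons of any 2 of the 10 genes.

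The genes lie apart on 4 chromosomes of TAIR10.1. ATG8A (AT4G21980) lies at chr4:11655562-11657034, ATG8B (AT4G04620) at chr4:2328442-2330590 and ATG8F (AT4G16520) at chr4:9306339-9308538. NBR1 (AT4G24690), whose coding sequence of 704 codons is far longer than those of the ATG8 genes, lies at chr4:12741032-12744670. ATG8H (AT3G06420) lies at chr3:1954990-1956397, ATG8I (AT3G15580) at chr3:5273526-5275095 and ATG8G (AT3G60640) at chr3:22415751-22417548. ATG8D (AT2G05630) lies at chr2:2082894-2084905, ATG8E (AT2G45170) at chr2:18624264-18625791 and ATG8C (AT1G62040) at chr1:22932760-22934549. Overlap with a neighbour was 27 bases for ATG8A with AT4G21990, 101 bases for NBR1 with AT4G24700 and 183 bases for ATG8I with AT3G15578. Whether counting used the strand is not given, so how reads in those stretches were assigned is not known.

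The libraries held 48360933 to 127276992 counts, and the members' counts ran from 187 to 117083 per library, so all 10 passed the filter on low counts. Levels are given as CPM, counts brought to a common library size with factors of the TMM method. A gene was called where its adjusted p in edgeR's quasi-likelihood test fell below 0.05. Plastid genes took 10.4% to 11.5% of the counts in DM1-DM2d and 41.85% to 42.2% in Col-0 12 DAS, but at most 0.17% in every other group. The edited genes still gave transcripts, which the counts cannot tell from intact ones: in Col-0 adr1s ADR1 averaged 10.1 ± 2.1 CPM, ADR1-L1 30.8 ± 1.4 CPM and ADR1-L2 16.3 ± 4.1 CPM (SD, n = 3). Of the markers that check the label shoot, the 5 leaf mesophyll genes were present in all groups. Of 8 root markers, RHD6 and EXPA18 had no counts in 4 groups, and PYK10 made up nearly the whole summed root level of 283 to 1140 CPM.

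In DM1-DM2d all 10 genes were higher than in Col-0 12 DAS, by 2.35-fold to 20.1-fold. Of all 23349 genes tested, 36.6% were called higher in the same comparison, and 43.4% had all DM1-DM2d libraries above both Col-0 libraries, as all 10 members had. The median log2 change of the members was 2.64, against 0.0046 over all genes tested.

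ATG8H, a member with an exposed terminal glycine, stood at 150, 162 and 150 CPM in DM1-DM2d, against 8.99 and 6.34 CPM in Col-0 12 DAS. The DM1-DM2d libraries lay close together and far above both Col-0 libraries. Its log2 change was 4.33 ± 0.195 (SE), a 20.1-fold difference with an adjusted p of 1.92e-12, the largest of the 10. ATG8A stood at 186, 209 and 202 CPM in DM1-DM2d, against 13.1 and 10.1 CPM in Col-0 12 DAS, a log2 change of 4.10 ± 0.212. ATG8B, its closest relative in sequence, stood at 150, 161 and 155 CPM in DM1-DM2d, against 14.4 and 11.6 CPM in Col-0 12 DAS, a log2 change of 3.58 ± 0.245. ATG8E stood at 201, 215 and 208 CPM in DM1-DM2d, against 19.3 and 26.5 CPM in Col-0 12 DAS, a log2 change of 3.19 ± 0.252. These 4 genes were the ones raised more than 8-fold, and none of their libraries overlapped between the groups.

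NBR1, the cargo receptor, had the highest counts of the 10 and stood at 1280, 1320 and 1130 CPM in DM1-DM2d, against 210 and 176 CPM in Col-0 12 DAS. The DM1-DM2d libraries all lay far above both Col-0 libraries. Its log2 change was 2.69 ± 0.147, a 6.45-fold difference (adjusted p = 2.38e-11). ATG8D stood at 131, 131 and 123 CPM in DM1-DM2d, against 20.1 and 22.4 CPM in Col-0 12 DAS (log2 change 2.59 ± 0.19). ATG8G and ATG8I, at log2 changes of 2.13 ± 0.184 and 2.04 ± 0.109, were raised about 4-fold. The smallest changes were those of ATG8C, 1.56 ± 0.104, and of ATG8F, 1.23 ± 0.155. ATG8F stood at 132, 142 and 128 CPM in DM1-DM2d, against 54.6 and 59.4 CPM in Col-0 12 DAS, and these libraries, too, did not overlap.

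All 10 calls held in each of 29 alternative settings, among them the omission of organelle genes and upper-quartile scaling (median of all genes moved by -0.302). The summed level of 5 leaf mesophyll markers, all called lower, was 1110 to 1360 CPM in DM1-DM2d and 24200 to 26000 CPM in Col-0 12 DAS, and none of the 5 was at 0. The summed level of 6 senescence markers, 5 of them called higher, was 924 to 970 CPM in DM1-DM2d and 63.8 to 89.6 CPM in Col-0 12 DAS, while the defining marker SAG12 had at most 0.0234 CPM in DM1-DM2d and at most 0.211 CPM in Col-0 12 DAS. The summed level of 8 root markers, of which 2 were called higher and 3 lower, was 283 to 479 CPM in DM1-DM2d and 586 to 950 CPM in Col-0 12 DAS. The part of these shifts in the members' changes was not tested, and in RNA of whole shoots fewer cells of a type cannot be told apart from less RNA per cell.

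**Figure D1:**
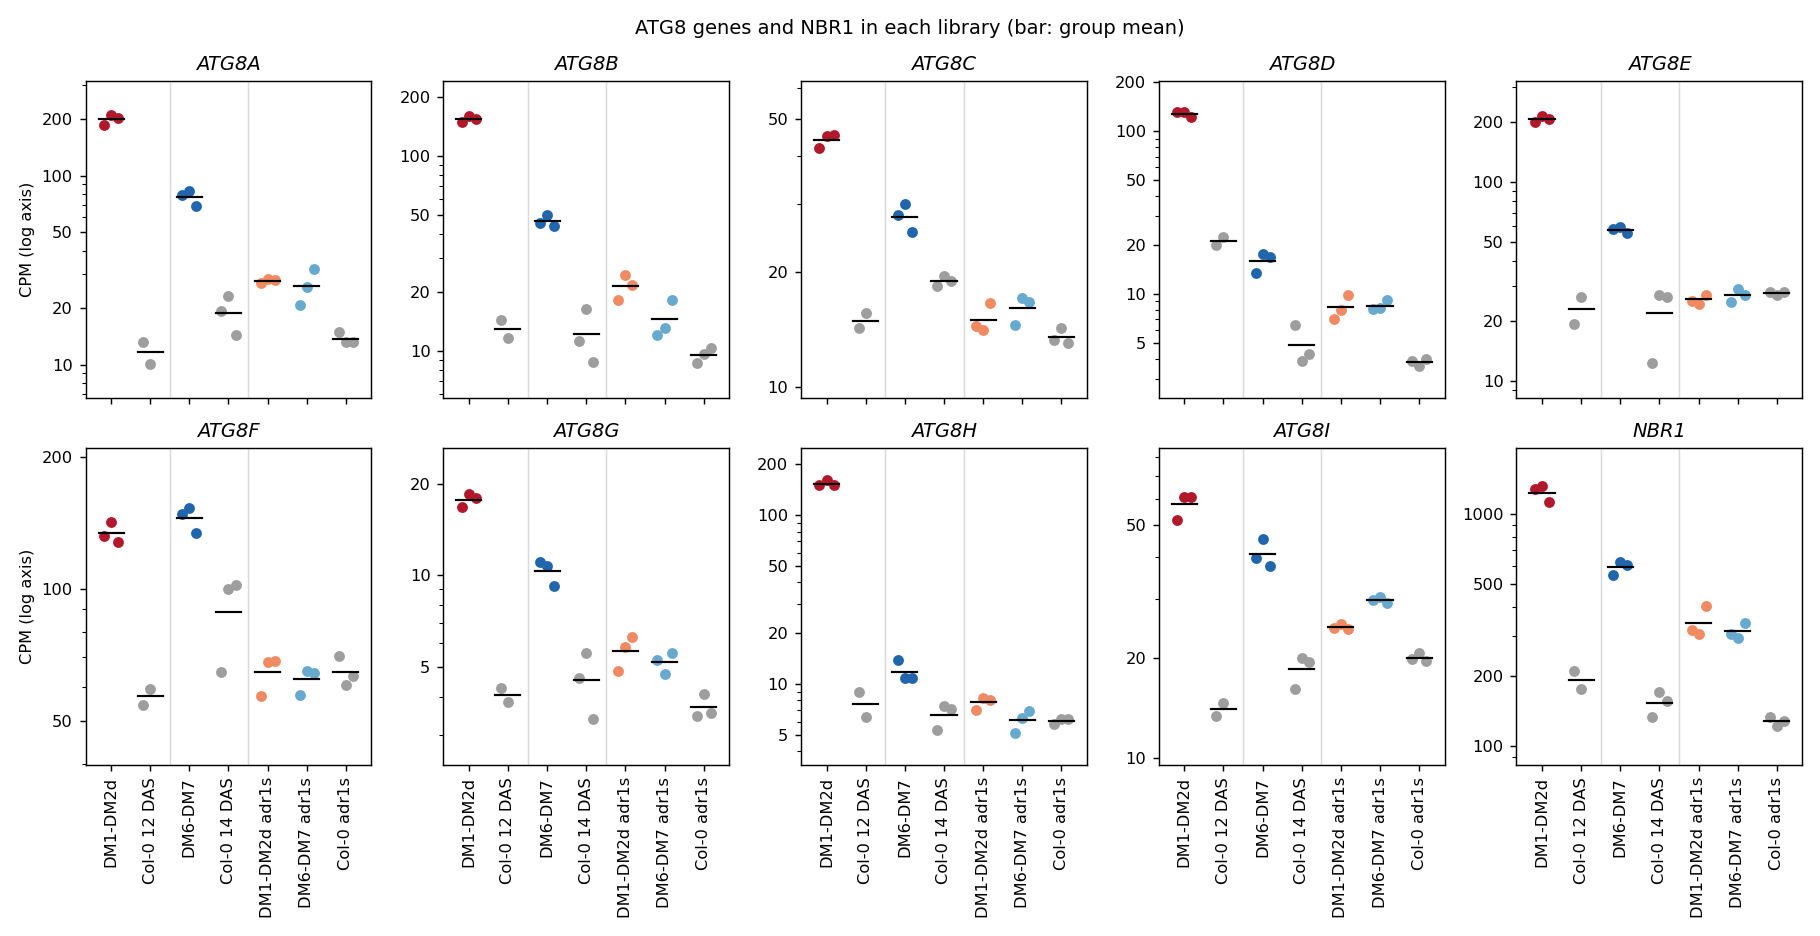
Level of each gene in each of the 20 libraries, in CPM on a log axis, with 1 panel per gene, 1 point per library and a black bar at the mean of each group; thin grey lines separate the 3 batches. In all 10 panels the DM1-DM2d and DM6-DM7 points lie above those of their own Col-0 group, and for ATG8E and ATG8F the 3 adr1s groups lie close together.

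In DM6-DM7 all 10 genes were again higher than in their own control, Col-0 14 DAS, by smaller factors of 1.47 to 4.10. In this comparison 35.0% of all genes tested were called higher and 34.2% had DM6-DM7 libraries all above those of Col-0 14 DAS, as all 10 members had. The members' median log2 change was 1.29, against 0.0616 over all genes tested.

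ATG8A stood at 79.0, 82.4 and 69.3 CPM in DM6-DM7, against 19.1, 23.0 and 14.3 CPM in Col-0 14 DAS, and with a log2 change of 2.03 ± 0.163 it was the most changed. NBR1 stood at 547, 620 and 603 CPM in DM6-DM7, against 133, 172 and 157 CPM in Col-0 14 DAS, a log2 change of 1.94 ± 0.122 (adjusted p = 7.73e-10). For both genes the DM6-DM7 libraries lay close together and well above all 3 of Col-0 14 DAS. ATG8B followed at 45.4, 49.7 and 43.7 CPM in DM6-DM7, against 11.3, 16.4 and 8.77 CPM in Col-0 14 DAS (log2 change 1.93 ± 0.193). ATG8D stood at 13.5, 17.7 and 16.8 CPM in DM6-DM7, against 6.45, 3.88 and 4.30 CPM in Col-0 14 DAS (1.72 ± 0.16).

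ATG8E stood at 57.9, 59.4 and 55.5 CPM in DM6-DM7, against 12.3, 27.0 and 26.4 CPM in Col-0 14 DAS (1.39 ± 0.2), with replicate 1 of Col-0 14 DAS well below the other two. ATG8H, the most changed gene in DM1-DM2d, stood at 13.8, 10.8 and 10.9 CPM in DM6-DM7, against 5.32, 7.37 and 7.13 CPM in Col-0 14 DAS. Its libraries did not overlap, but its log2 change of 0.84 ± 0.146 was smaller than those of 7 other members. ATG8G (1.19 ± 0.153) and ATG8I (1.15 ± 0.091) were raised a little over 2-fold, and ATG8F (0.71 ± 0.133) and ATG8C (0.55 ± 0.0879) changed least, as in DM1-DM2d.

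These 10 calls, too, held in all 29 alternatives, although upper-quartile scaling moved the median of all genes by -0.178 and turned the balance of all calls, of which 42.4% were then higher in place of 54.1%. The leaf mesophyll markers, 5 of 5 called lower, summed to 21800 to 26200 CPM in DM6-DM7 and 73900 to 95700 CPM in Col-0 14 DAS. The senescence markers, 4 of 6 called higher, summed to 830 to 837 CPM in DM6-DM7 and 71.7 to 171 CPM in Col-0 14 DAS. The root markers, with 2 of 6 tested called higher, summed to 735 to 935 CPM in DM6-DM7 and 415 to 535 CPM in Col-0 14 DAS. Their part in the members' changes was not tested.

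**Figure D2:**
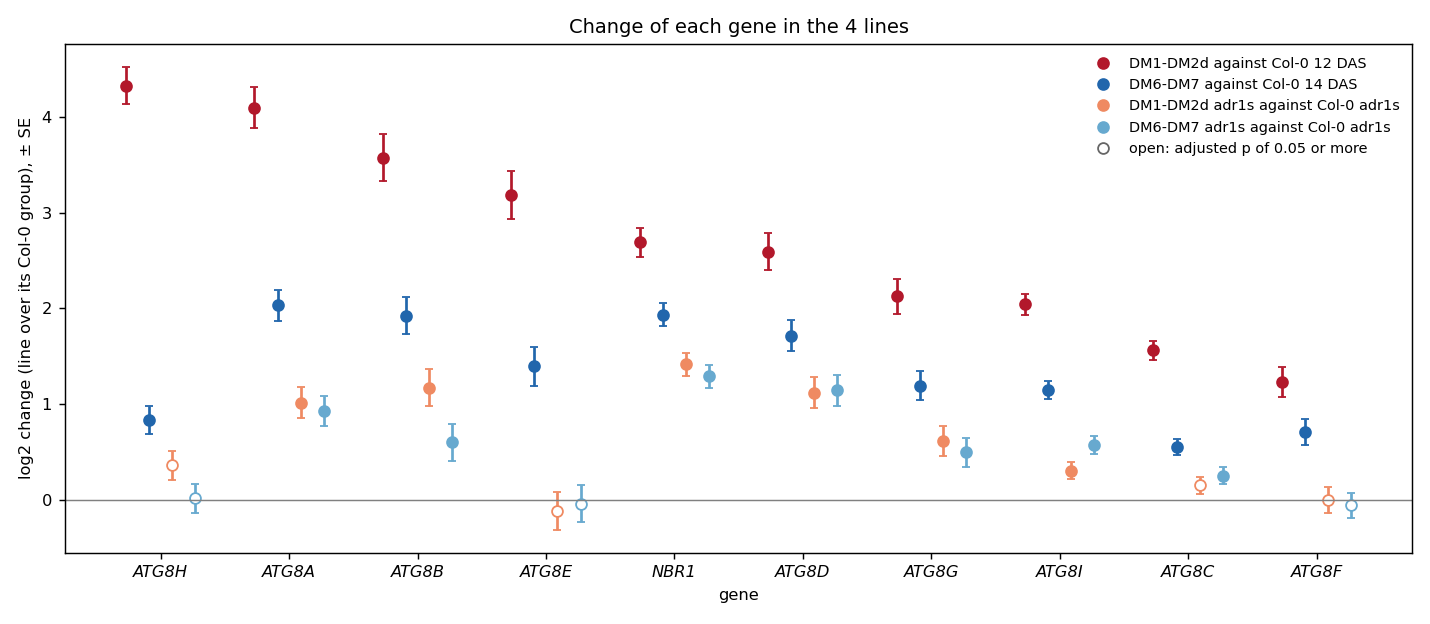
Log2 change of each gene in the 4 lines against the Col-0 group of the same batch, with bars of ± 1 SE; filled points passed the test and open points did not. Genes run from the largest change in DM1-DM2d, ATG8H at 4.33, to the smallest, ATG8F at 1.23. In DM6-DM7 the order differs for several genes, with ATG8H at 0.84 farthest from its place. There NBR1 at 1.94 and ATG8D at 1.72 lie above ATG8E at 1.39, and ATG8C at 0.55 lies below ATG8F at 0.71.

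The DM1-DM2d effect exceeded the DM6-DM7 effect for all 10 genes, where 22.0% of all genes tested were called in that direction. The excess was largest for ATG8H, whose log2 change of 4.33 in DM1-DM2d stood against 0.84 in DM6-DM7, a difference of 3.49 ± 0.228 (adjusted p = 2.52e-09). It was 2.06 ± 0.243 for ATG8A, 1.79 ± 0.301 for ATG8E, 1.65 ± 0.286 for ATG8B and 1.01 ± 0.133 for ATG8C. For ATG8G, ATG8I and ATG8D it lay between 0.88 and 0.94. NBR1 had one of the smallest, 0.75 ± 0.178. ATG8F had the smallest, 0.52 ± 0.2 (adjusted p = 0.0383), and its call was lost in 13 alternatives, with log2 differences of 0.42 to 0.59 and adjusted p up to 0.117. Among these were upper-quartile scaling and the omission of replicate 1 or 2 of DM1-DM2d, either library of Col-0 12 DAS, replicate 1 or 3 of DM6-DM7, replicate 2 or 3 of Col-0 14 DAS, or replicate 2 of Col-0 adr1s. Gene pair, age and batch differ together between these effects and cannot be told apart. The batches also differ in library make-up, with plastid genes at 41.85% to 42.2% of counts in Col-0 12 DAS and at most 0.136% in Col-0 14 DAS. The part of this in the differences was not tested.

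In DM1-DM2d adr1s 6 of the 10 genes were higher than in Col-0 adr1s and 4 did not pass the test. In DM6-DM7 adr1s 7 were higher and 3 did not pass, and the count dropped to 4 without replicate 3 of DM6-DM7 adr1s or without replicate 1 of Col-0 adr1s. The share of all genes tested that were called higher was 23.9% for DM1-DM2d adr1s, while for DM6-DM7 adr1s it was 18.6%. Libraries of the line lay all above those of Col-0 adr1s for 7 members in each line, which held for 32.5% and 27.8% of all genes tested. Both lines share the same 3 Col-0 adr1s libraries, so their values are given side by side and not compared through that control.

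NBR1 was the most changed member in both. It stood at 318, 304 and 401 CPM in DM1-DM2d adr1s and 306, 293 and 341 CPM in DM6-DM7 adr1s, against 134, 122 and 129 CPM in Col-0 adr1s. No library of either line came near the control. The log2 change was 1.42 ± 0.12 (adjusted p = 1.51e-07) in DM1-DM2d adr1s and 1.29 ± 0.12 (adjusted p = 7.64e-07) in DM6-DM7 adr1s.

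ATG8D stood at 7.05, 8.03 and 9.88 CPM in DM1-DM2d adr1s and 8.07, 8.15 and 9.13 CPM in DM6-DM7 adr1s, against 3.88, 3.59 and 4.00 CPM in Col-0 adr1s. ATG8A stood at 27.1, 28.3 and 27.9 CPM in DM1-DM2d adr1s and 20.7, 25.6 and 32.1 CPM in DM6-DM7 adr1s, against 14.8, 13.2 and 13.1 CPM in Col-0 adr1s. Both genes were about 2-fold higher in either line, with log2 changes of 1.12 ± 0.164 and 1.14 ± 0.164 for ATG8D and of 1.02 ± 0.161 and 0.93 ± 0.161 for ATG8A. ATG8B changed by 1.17 ± 0.193 in DM1-DM2d adr1s and by 0.60 ± 0.192 in DM6-DM7 adr1s, where the call was lost without replicate 3 of that line (0.40, adjusted p = 0.167) or without replicate 1 or 2 of Col-0 adr1s (0.53 and 0.59, adjusted p = 0.0943 and 0.0649).

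Several smaller changes lost their call when 1 library was left out. ATG8G changed by 0.62 ± 0.156 in DM1-DM2d adr1s and by 0.49 ± 0.156 in DM6-DM7 adr1s. The second of these calls was lost without replicate 1 or 3 of DM6-DM7 adr1s or replicate 1 or 3 of Col-0 adr1s, with log2 changes of 0.44 to 0.47. ATG8I stood at 24.6, 25.2 and 24.3 CPM in DM1-DM2d adr1s and 29.8, 30.5 and 29.1 CPM in DM6-DM7 adr1s, against 19.8, 20.7 and 19.5 CPM in Col-0 adr1s. Its log2 change of 0.30 ± 0.0908 in DM1-DM2d adr1s lost its call when any 1 library of that line was left out (0.25 to 0.28, adjusted p = 0.062 to 0.0936), and 0.57 ± 0.0908 in DM6-DM7 adr1s kept it. ATG8C was called in DM6-DM7 adr1s at 0.25 ± 0.0891 (adjusted p = 0.0416), but not under RLE or upper-quartile scaling, in DESeq2, or without any 1 of 11 libraries (0.20 to 0.28). In DM1-DM2d adr1s ATG8C was at 0.15 ± 0.0891 (adjusted p = 0.188).

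ATG8E, ATG8F and ATG8H did not pass the test in either adr1s line. ATG8E stood at 25.1, 24.4 and 27.1 CPM in DM1-DM2d adr1s and 25.0, 28.9 and 26.9 CPM in DM6-DM7 adr1s, against 28.0, 27.1 and 28.0 CPM in Col-0 adr1s. Its log2 changes were -0.11 ± 0.198 and -0.04 ± 0.198. ATG8F had log2 changes of -0.0041 ± 0.133 and -0.06 ± 0.133, and its libraries overlapped those of Col-0 adr1s. ATG8H stood at 7.02, 8.32 and 8.00 CPM in DM1-DM2d adr1s and 5.15, 6.30 and 6.91 CPM in DM6-DM7 adr1s, against 5.82, 6.20 and 6.17 CPM in Col-0 adr1s. In DM1-DM2d adr1s it lay above the control in every library without passing the test (0.36 ± 0.149, adjusted p = 0.0622), and in DM6-DM7 adr1s it overlapped the control (0.01 ± 0.15).

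Leaf mesophyll markers summed to 23400 to 29100 CPM in DM1-DM2d adr1s, with 5 of 5 called lower, and to 26100 to 31400 CPM in DM6-DM7 adr1s, with 4 of 5 called lower, against 48400 to 54100 CPM in Col-0 adr1s. Senescence markers, 3 of 6 called higher in each line, summed to 248 to 385 CPM in DM1-DM2d adr1s and 233 to 276 CPM in DM6-DM7 adr1s, against 62.1 to 74.3 CPM in Col-0 adr1s, and SAG12 had no counts in any of the 9 libraries. Root markers summed to 892 to 1140 CPM in DM1-DM2d adr1s and 644 to 791 CPM in DM6-DM7 adr1s, against 548 to 636 CPM in Col-0 adr1s. Their part in these changes was not tested.

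Set against each other, DM1-DM2d adr1s and DM6-DM7 adr1s differed in none of the 10 genes by edgeR's quasi-likelihood test, where 8.91% of all genes tested were called in either direction. At an unadjusted p below 0.05 there were 3, and DESeq2 called 1. Without replicate 2 or 3 of Col-0 14 DAS, libraries of neither line, 2 were called, and without replicate 1 of Col-0 14 DAS or replicate 3 of DM6-DM7 adr1s 1 was. ATG8B was at 0.57 ± 0.189 (adjusted p = 0.0717 in edgeR, 0.0334 in DESeq2) and ATG8I at -0.27 ± 0.0904 (adjusted p = 0.0727). ATG8I libraries of DM1-DM2d adr1s all lay below those of DM6-DM7 adr1s, as 17.6% of genes did, and ATG8H libraries all above, as 17.7% did. For NBR1 the log2 difference was 0.12 ± 0.118 and for ATG8A 0.09 ± 0.158, with overlapping libraries for both.

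The change in DM1-DM2d exceeded that in DM1-DM2d adr1s for all 10 genes, where 26.0% of all genes tested were called in that direction. ATG8H changed by 4.33 in DM1-DM2d and by 0.36 in DM1-DM2d adr1s, a difference of 3.97 ± 0.232 (adjusted p = 2.65e-10). ATG8E changed by 3.19 in DM1-DM2d and by -0.11 in DM1-DM2d adr1s, a difference of 3.30 ± 0.31 (adjusted p = 1.09e-07). For ATG8A the difference was 3.08 ± 0.249 and for ATG8B 2.41 ± 0.292. ATG8I, ATG8G, ATG8D and ATG8C had differences of 1.41 to 1.74. Those of NBR1, 1.27 ± 0.179, and of ATG8F, 1.23 ± 0.202, were the smallest, for NBR1 beside a change that was still 2.67-fold in DM1-DM2d adr1s and for ATG8F beside none that passed the test.

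For DM6-DM7 the change exceeded that in DM6-DM7 adr1s for 8 of the 10 genes, where 14.9% of all genes tested were called in that direction. The differences were 1.43 ± 0.28 for ATG8E, 1.32 ± 0.269 for ATG8B, 1.11 ± 0.224 for ATG8A, 0.82 ± 0.208 for ATG8H and 0.76 ± 0.188 for ATG8F. ATG8I was at 0.57 ± 0.128. ATG8G, at 0.70 ± 0.217, lost its call in 12 alternatives, at 0.44 to 0.70 with adjusted p up to 0.095. Among these were upper-quartile scaling and the omission of either library of Col-0 12 DAS, replicate 1 or 2 of DM6-DM7, replicate 3 of Col-0 14 DAS, replicate 2 of DM1-DM2d adr1s, replicate 1 or 2 of DM6-DM7 adr1s, or replicate 2 of Col-0 adr1s. NBR1, at 0.64 ± 0.167 (adjusted p = 0.00762), lost its call without replicate 2 or 3 of DM6-DM7 or replicate 1 or 2 of DM6-DM7 adr1s, at 0.51 to 0.54 (adjusted p = 0.0503 to 0.0603). ATG8D (0.57 ± 0.227, adjusted p = 0.0642) and ATG8C (0.30 ± 0.125, adjusted p = 0.0756) did not pass, and ATG8D passed without replicate 1 of Col-0 14 DAS (0.83, adjusted p = 0.00201) or without replicate 1 of DM6-DM7 (0.61, adjusted p = 0.0432). Under upper-quartile scaling 29.0% of all calls in this difference were higher in place of 47.8%, and for DM1-DM2d 33.7% in place of 44.4%. The adr1s groups form a batch of their own with no stated age, so the knockout cannot be told apart from batch in these differences. For DM1-DM2d that includes the plastid share of counts, 41.85% to 42.2% in Col-0 12 DAS but at most 0.17% in the adr1s groups.

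**Figure D3:**
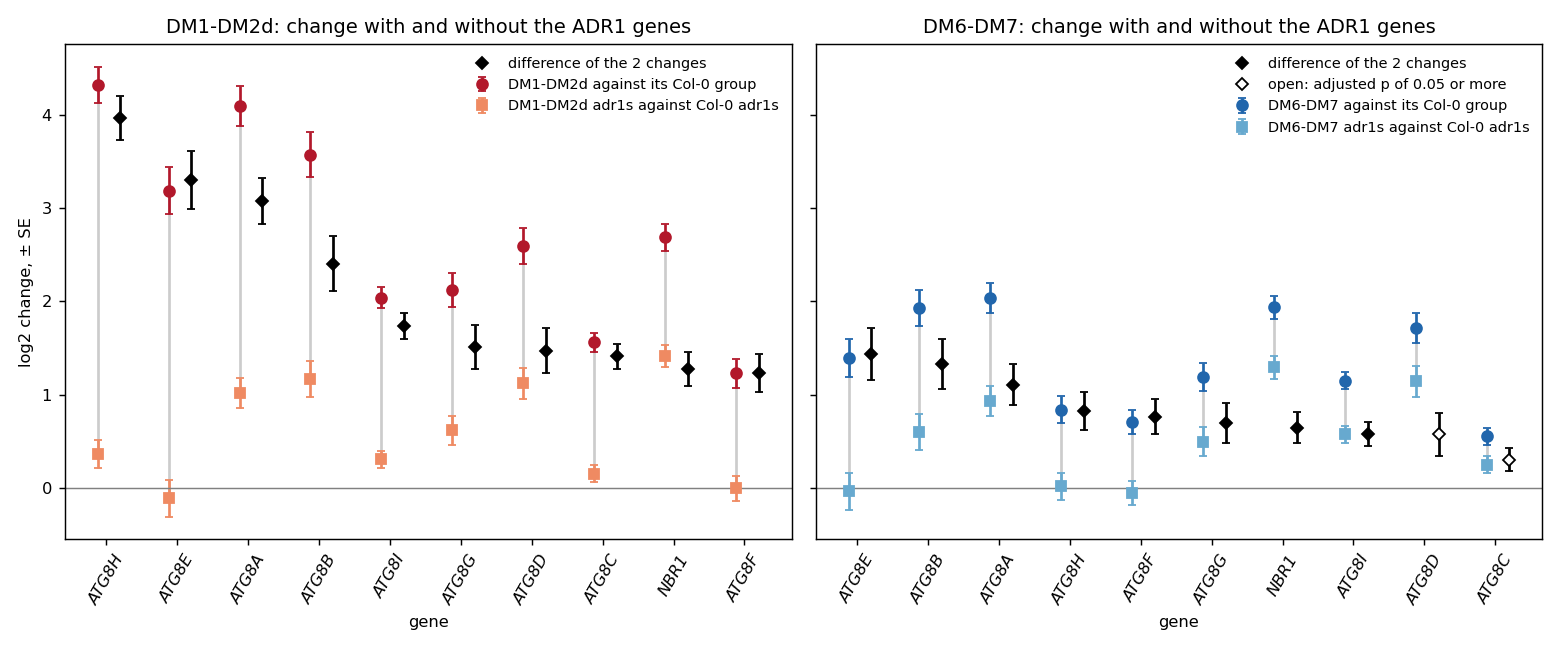
Log2 change of each gene with ± 1 SE for DM1-DM2d (left panel) and DM6-DM7 (right panel): circles show the line with ADR1 genes intact, squares the line in adr1s, and diamonds the difference of the pair, open where it did not pass the test. Squares of ATG8E and ATG8F lie between -0.11 and -0.0041 in both panels, and those of NBR1 lie at 1.42 and 1.29.

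Levels per length, in CPM per kb of the joined exons of all gene models, were set side by side for the ATG8 genes. That length was 1864 bases for ATG8F, which has 3 models, and 712 (ATG8H) to 1254 (ATG8B) bases for the others. Where the transcripts present are shorter than the joined exons, the level of a gene is understated, so ranks and shares depend on this length. Their sum was 1060, 1140 and 1090 CPM per kb in DM1-DM2d, against 140 and 145 in Col-0 12 DAS, a ratio of means of 7.71. It was 371, 389 and 342 CPM per kb in DM6-DM7, against 128, 177 and 159 in Col-0 14 DAS, a ratio of 2.37. In DM1-DM2d adr1s it was 160, 176 and 180 and in DM6-DM7 adr1s 153, 171 and 181 CPM per kb, against 138, 133 and 134 in Col-0 adr1s, with ratios of 1.27 and 1.25. The summed levels of a line and its Col-0 group overlapped in none of the 4 pairs, and the 3 Col-0 groups lay close together at 135 to 155 CPM per kb on average.

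The make-up of that sum differed between the groups. ATG8F had the highest level per kb in all 3 Col-0 groups, at 30.6 ± 1.8 CPM per kb in Col-0 12 DAS, 47.7 ± 11 in Col-0 14 DAS and, for Col-0 adr1s, 34.8 ± 2.8 (SD, n = 2, 3 and 3), and in no Col-0 group did its libraries overlap those of the next gene, ATG8E. In DM1-DM2d the highest were ATG8E at 227 ± 7.8, ATG8H at 216 ± 9.9 and ATG8A at 210 ± 12 CPM per kb (SD, n = 3), whose libraries overlapped, ahead of ATG8D at 136 ± 5.3. ATG8H gave 19.3% to 19.9% of the sum in DM1-DM2d, against 6.13% to 9.05% in Col-0 12 DAS, while ATG8F gave 6.29% to 6.67%, against 21.0% to 22.0%. The ATG8A share was 18.5% to 19.6% in DM1-DM2d, against 7.37% to 9.93% in Col-0 12 DAS. These 3 shares did not overlap between the groups.

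In DM6-DM7 ATG8A, at 81.4 ± 7.2 CPM per kb, and ATG8F, at 77.8 ± 5.2, were highest and overlapped. ATG8H gave 3.90% to 5.22% of the sum in DM6-DM7, against 5.83% to 6.29% in Col-0 14 DAS, so its share was lower there although its level was higher. ATG8A gave 21.4% to 22.6% in DM6-DM7, against 9.47% to 15.8% in Col-0 14 DAS. In both adr1s lines ATG8F remained the gene with the highest level. ATG8G had the lowest level per kb in all 7 groups, from 3.31 ± 0.3 CPM per kb in Col-0 adr1s to 15.8 ± 0.82 in DM1-DM2d.

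**Figure D4:**
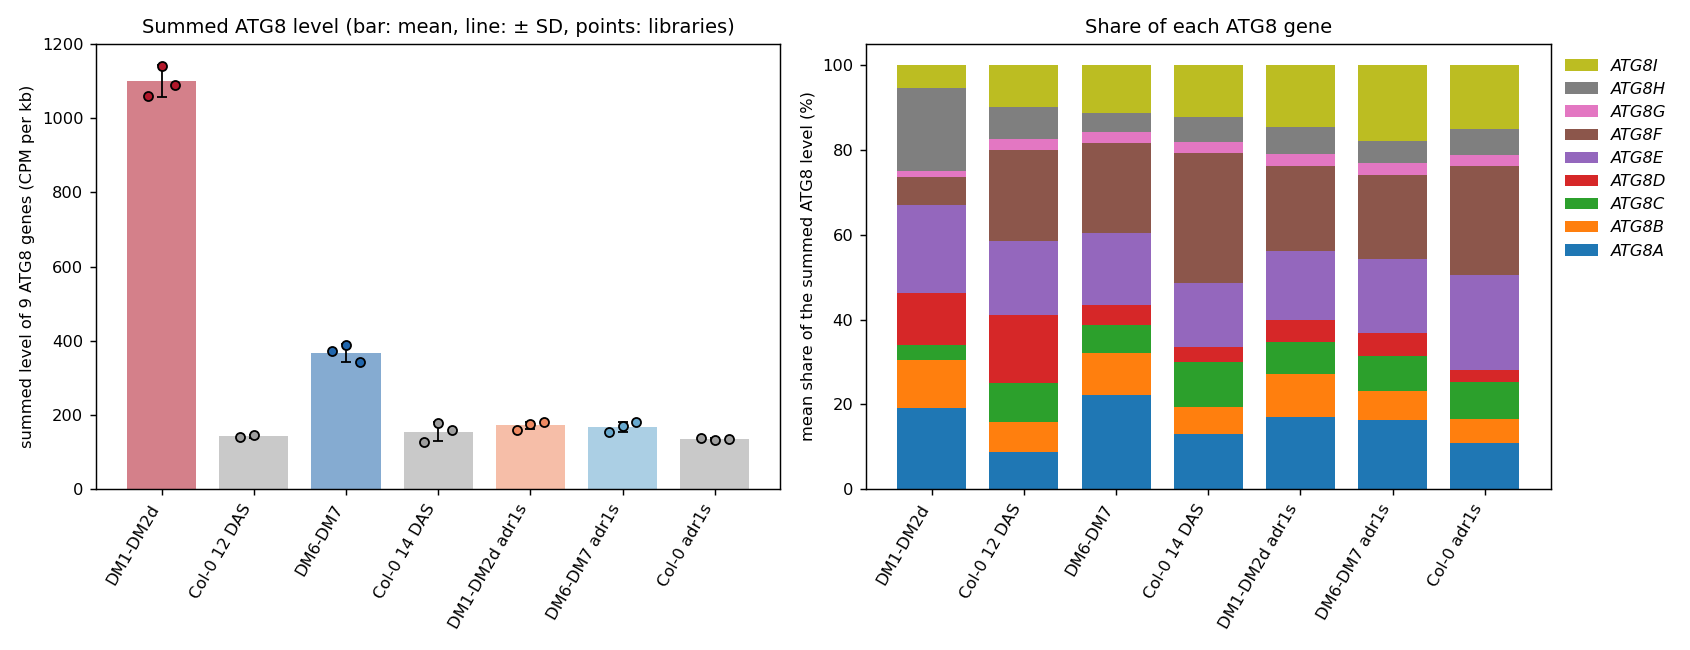
Left, summed level of the 9 ATG8 genes in CPM per kb for each group, with bars at the mean, lines of ± SD and 1 point per library; right, mean share of each gene in that sum. The sum averages 1100 in DM1-DM2d and 142 in Col-0 12 DAS, and the ATG8H share is 19.7% in DM1-DM2d and 7.59% in Col-0 12 DAS.

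The order of each gene's levels across all 7 groups is given as a description, since ages, batches and the plastid share of counts differ. NBR1 averaged 1240 ± 100 CPM in DM1-DM2d, followed by DM6-DM7 at 590 ± 38, DM1-DM2d adr1s at 341 ± 52 and then DM6-DM7 adr1s at 313 ± 25 CPM (SD, n = 3 each). The Col-0 groups came last, at 193 ± 24 CPM for 12 DAS (n = 2), 154 ± 20 CPM for 14 DAS and 128 ± 6 CPM for adr1s (n = 3 each). Of these neighbours, the adr1s lines overlapped each other and Col-0 14 DAS overlapped Col-0 adr1s. DM1-DM2d had the highest mean for 9 of the 10 genes, and the exception was ATG8F, at 134 ± 7.4 CPM in DM1-DM2d and 145 ± 9.7 CPM in DM6-DM7 with overlapping libraries. For ATG8C, ATG8D, ATG8E, ATG8F and ATG8H the mean of at least 1 Col-0 group lay above that of at least 1 adr1s line with a DM pair. ATG8D was the one gene for which a Col-0 group outranked DM6-DM7: it averaged 21.3 ± 1.6 CPM in Col-0 12 DAS (n = 2), above 16.0 ± 2.2 CPM in DM6-DM7 and far above Col-0 14 DAS at 4.87 ± 1.4 CPM and Col-0 adr1s at 3.82 ± 0.21 CPM (n = 3 each). Age, batch and the knockout cannot be told apart in that spread among Col-0 groups.

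Correlations between members were taken over the 20 libraries after subtracting the mean of the Col-0 group of the batch from log2(CPM + 1). Over 45 pairs Pearson's r ran from 0.766, for ATG8H with NBR1, to 0.991, for ATG8A with ATG8B, with a median of 0.93. The libraries of a group share that group's effect, so these values describe the groups more than independent samples. On the same scale, and among 12239 genes with a mean of at least 10 CPM, the genes most like NBR1 were AT1G10410 (r = 0.995), AT4G23470, ORP1A, an oxysterol-binding-related protein, VSR7, a vacuolar sorting receptor, and AT5G40720. VSR7 had log2 changes of 5.22 in DM1-DM2d and 3.94 in DM6-DM7, and of 2.80 in both adr1s lines. The genes most like ATG8A, the ATG8 gene with the largest summed change over the 4 lines, were VSR1, another vacuolar sorting receptor (r = 0.997), CEN2, a centrin, RHA1, a Rab5-type GTPase of endosomes, AT1G17080 and AT2G45500. VSR1 had log2 changes of 2.16 in DM1-DM2d and 1.11 in DM6-DM7. In adr1s plants they were 0.50 with the DM1-DM2d pair and 0.42 with the DM6-DM7 pair.

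The rest of the pathway was read from 7 lists of 68 genes, of which all but ATG18E were tested. In DM1-DM2d 61 of 67 were called higher and 3 lower, with a median log2 change of 1.36, where 36.6% of all genes were higher and 36.4% lower. In DM6-DM7 50 were higher and 4 lower, with a median of 0.50, where 35.0% of all genes were higher and 29.7% lower. In DM1-DM2d adr1s 18 were higher and 5 lower, with a median of 0.10, where 23.9% of all genes were higher and 18.8% lower. In DM6-DM7 adr1s 16 were higher and 7 lower, with a median of 0.06, where 18.6% of all genes were higher and 12.6% lower, so in the adr1s lines the share of the pathway called higher lay near that of all genes.

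The ATG1-ATG13 kinase complex starts autophagosome formation. All 8 of its genes were called higher in DM1-DM2d and in DM6-DM7, with median log2 changes of 2.41 and 0.77. Of these calls, 1 in DM6-DM7 was lost in 12 of 28 alternatives. Among them were RLE and upper-quartile scaling, DESeq2 and the omission of any 1 library of DM6-DM7. In DM1-DM2d 1 call was lost in 4 of 28, among them upper-quartile scaling and the omission of either library of Col-0 12 DAS. In adr1s plants 3 were called higher with DM1-DM2d and 2 with DM6-DM7. The count of 3 was 2 when any 1 library other than replicate 1 of Col-0 14 DAS was left out. ATG1A, its catalytic kinase, stood at 401, 404 and 382 CPM in DM1-DM2d, against 34.8 and 34.9 CPM in Col-0 12 DAS, and its log2 change of 3.51 ± 0.109 was of the size of those of the most changed ATG8 genes. It changed by 1.44 ± 0.0849 in DM6-DM7, and in adr1s plants by 0.95 ± 0.0846 with DM1-DM2d and by 0.70 ± 0.0844 with DM6-DM7, so it passed the test in all 4 lines. ATG101, a subunit of the same complex, changed by 3.35 ± 0.121 in DM1-DM2d and 0.89 ± 0.0945 in DM6-DM7, and by 0.42 ± 0.0954 and 0.44 ± 0.0954 in their adr1s counterparts.

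Genes of membrane supply, ATG9, ATG2 and the ATG18 family, were called higher in 9 of 9 cases in DM1-DM2d and 5 of 9 in DM6-DM7. ATG9, the membrane protein of the seed vesicles, changed by 2.65 ± 0.108 in DM1-DM2d and 0.62 ± 0.0869 in DM6-DM7. ATG2, the lipid transfer protein, changed by 1.24 ± 0.0923 in DM6-DM7, and in adr1s plants by 0.42 ± 0.0916 with DM1-DM2d and 0.40 ± 0.0916 with DM6-DM7. In DM6-DM7 adr1s 2 genes of this list, ATG18B and ATG18G, were called lower, at -0.32 ± 0.112 and -0.20 ± 0.0674, but ATG18B lost its call without any 1 library of DM6-DM7 adr1s or replicate 2 or 3 of Col-0 adr1s, and ATG18G without replicate 1 or 2 of Col-0 12 DAS, replicate 2 or 3 of DM6-DM7 adr1s or replicate 1 or 3 of Col-0 adr1s. Of 6 genes of the phosphatidylinositol 3-kinase complex, which marks the site of assembly, 6 were called higher in DM1-DM2d and 5 in DM6-DM7. The 6 were 5 without replicate 2 of Col-0 12 DAS. The 5 were 4 in DESeq2, and also without any 1 library of DM6-DM7, Col-0 14 DAS, Col-0 12 DAS, DM1-DM2d adr1s or DM6-DM7 adr1s. In adr1s plants 2 were called higher with DM1-DM2d and 3 with DM6-DM7. VPS15, the regulatory subunit of this complex, changed by 2.21 ± 0.0953 in DM1-DM2d and 0.99 ± 0.0791 in DM6-DM7, and with the DM6-DM7 pair in adr1s plants by 0.32 ± 0.0788. In DM1-DM2d adr1s it was called at 0.20 ± 0.0788 (adjusted p = 0.0496) but not in 24 of 28 alternatives, DESeq2 and the omission of any 1 library of that line among them (adjusted p up to 0.353), and without any 1 library of that line the list held 1 call. The 3 calls in DM6-DM7 adr1s were 2 without replicate 2 or 3 of that line or replicate 1 or 2 of Col-0 adr1s.

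The conjugation genes, whose products process ATG8 and attach it to the membrane, had smaller median changes than the ATG8 genes. Of 9, 7 were called higher and 1 lower in DM1-DM2d, with a median of 1.27 beside 2.59 for the 9 ATG8 genes, and 7 were called higher in DM6-DM7, with a median of 0.39 beside 1.19, but 4 without replicate 2 of Col-0 14 DAS. ATG7, the activating enzyme, changed by 2.29 ± 0.145 in DM1-DM2d and 0.79 ± 0.119 in DM6-DM7. ATG3, which transfers ATG8, changed by 0.99 ± 0.076 in DM1-DM2d and 0.34 ± 0.0658 in DM6-DM7, the second of these not called under upper-quartile scaling. ATG12B was the gene called lower in DM1-DM2d, at -0.71 ± 0.274 (adjusted p = 0.0284), with levels of 0.688 to 1.33 CPM in DM1-DM2d and 1.38 to 1.87 CPM in Col-0 12 DAS, and the call was lost without replicate 1 or 2 of DM1-DM2d or replicate 1 of Col-0 12 DAS. In DM1-DM2d adr1s 2 were called higher, ATG10 at 0.45 ± 0.166 and ATG12A at 0.38 ± 0.146, and these calls were lost in 15 and 22 of 28 alternatives. Neither was left when any 1 library of Col-0 adr1s or Col-0 12 DAS was omitted, or replicate 1 or 2 of DM1-DM2d adr1s, replicate 2 or 3 of DM6-DM7 adr1s, or replicate 3 of DM1-DM2d, DM6-DM7 or Col-0 14 DAS. In DM6-DM7 adr1s none was called by edgeR, with 2 at an unadjusted p below 0.05 and none called by DESeq2, and 1 was without replicate 1 of that line.

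Of 13 other cargo receptors and ATG8 interactors, 11 were called higher in DM1-DM2d and 10 in DM6-DM7, and 6 in each adr1s line. FREE1, an ESCRT-related protein of endosome and autophagosome trafficking, changed by 2.04 ± 0.11 in DM1-DM2d and 1.12 ± 0.0923 in DM6-DM7, and by 0.46 ± 0.0916 and 0.47 ± 0.0916 in their adr1s counterparts. CFS1, an adaptor that links autophagosomes to the vacuole route, changed by 2.31 ± 0.0885 in DM1-DM2d. DSK2B, a ubiquitin receptor like NBR1, changed by 2.23 ± 0.113 in DM1-DM2d and by 1.08 ± 0.0936 with the DM6-DM7 pair, which gave 0.49 ± 0.0931 in adr1s plants. ATI2, an ATG8-interacting protein, changed by 1.46 ± 0.106 in DM6-DM7, and in adr1s plants by 0.68 ± 0.105 with DM1-DM2d and 0.54 ± 0.105 with DM6-DM7. CLC2, a clathrin light chain, fell by 0.28 on the log2 scale in both lines with intact ADR1 genes and by 0.32 in DM1-DM2d adr1s. TSPO, a stress-induced membrane protein degraded by autophagy and named here after its values were seen, was called lower in DM6-DM7 on the strength of 1 library: it had 0.215, 0.352 and 0.0534 CPM in DM6-DM7, against 21.5, 0.371 and 0.294 CPM in Col-0 14 DAS, and the call was lost without replicate 1 of Col-0 14 DAS and in DESeq2.

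Upstream kinases and regulators were mixed. Of 14 such genes 13 were called higher in DM1-DM2d and 8 in DM6-DM7, but in adr1s plants 1 was with DM1-DM2d and 2 were with DM6-DM7, where 3 were called lower with either pair. In DM1-DM2d adr1s 2 were called higher without replicate 3 of DM6-DM7 adr1s or of Col-0 adr1s, and 5 lower without its own replicate 1. In DM6-DM7 adr1s 1 was called higher without its replicate 1 or replicate 1 of Col-0 adr1s. KIN11, a catalytic subunit of SnRK1, the energy-sensing kinase that promotes autophagy, changed by 1.26 ± 0.0774 in DM1-DM2d and did not pass the test in the other lines. RAPTOR1A, a partner of TOR, the kinase that restrains autophagy, was higher in DM1-DM2d, by 1.77 ± 0.14, and lower in the other lines: it fell by 0.60 on the log2 scale in DM6-DM7, and in adr1s plants it fell by 0.66 with DM1-DM2d and fell by 0.46 with DM6-DM7. Of 8 genes known from dark and sugar starvation 7 were called higher in DM1-DM2d and 7 in DM6-DM7. Of the 7 in DM1-DM2d, 1 lost its call in 16 of 28 alternatives. Among these were upper-quartile scaling and the omission of replicate 1 or 2 of DM1-DM2d or either library of Col-0 12 DAS. In each adr1s line 2 were called higher, of which none was left in DM1-DM2d adr1s without its replicate 2. DIN4, a subunit of a branched-chain keto acid dehydrogenase, changed by 2.02 ± 0.129 in DM1-DM2d and 1.71 ± 0.11 in DM6-DM7. In adr1s plants it changed by 0.49 ± 0.108 with DM6-DM7 and by 0.37 ± 0.108 with DM1-DM2d, a call that was lost without replicate 2 of DM1-DM2d adr1s. DIN9, a mannose-6-phosphate isomerase, was called in opposite directions in the lines with intact ADR1 genes: it stood at 151, 158 and 135 CPM in DM1-DM2d, against 3.59 and 3.60 CPM in Col-0 12 DAS, a log2 change of 5.36 ± 0.39. In DM6-DM7 it stood at 3.54, 3.56 and 3.00 CPM, against 11.3, 7.30 and 3.32 CPM in Col-0 14 DAS, where the libraries overlapped and the log2 change was -1.12 ± 0.28. SEN1 was called lower in both adr1s lines, at -1.11 ± 0.216 with the DM1-DM2d pair and -1.05 ± 0.216 with the DM6-DM7 pair. In DM6-DM7 it was called higher, at 0.55 ± 0.213 with overlapping libraries, but the call was lost in 17 of 28 alternatives, DESeq2, both other scalings and the omission of replicate 1 or 2 of DM6-DM7, replicate 1 or 2 of Col-0 14 DAS, or any 1 library of Col-0 12 DAS, DM1-DM2d adr1s or DM6-DM7 adr1s among them.

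**Figure D5:**
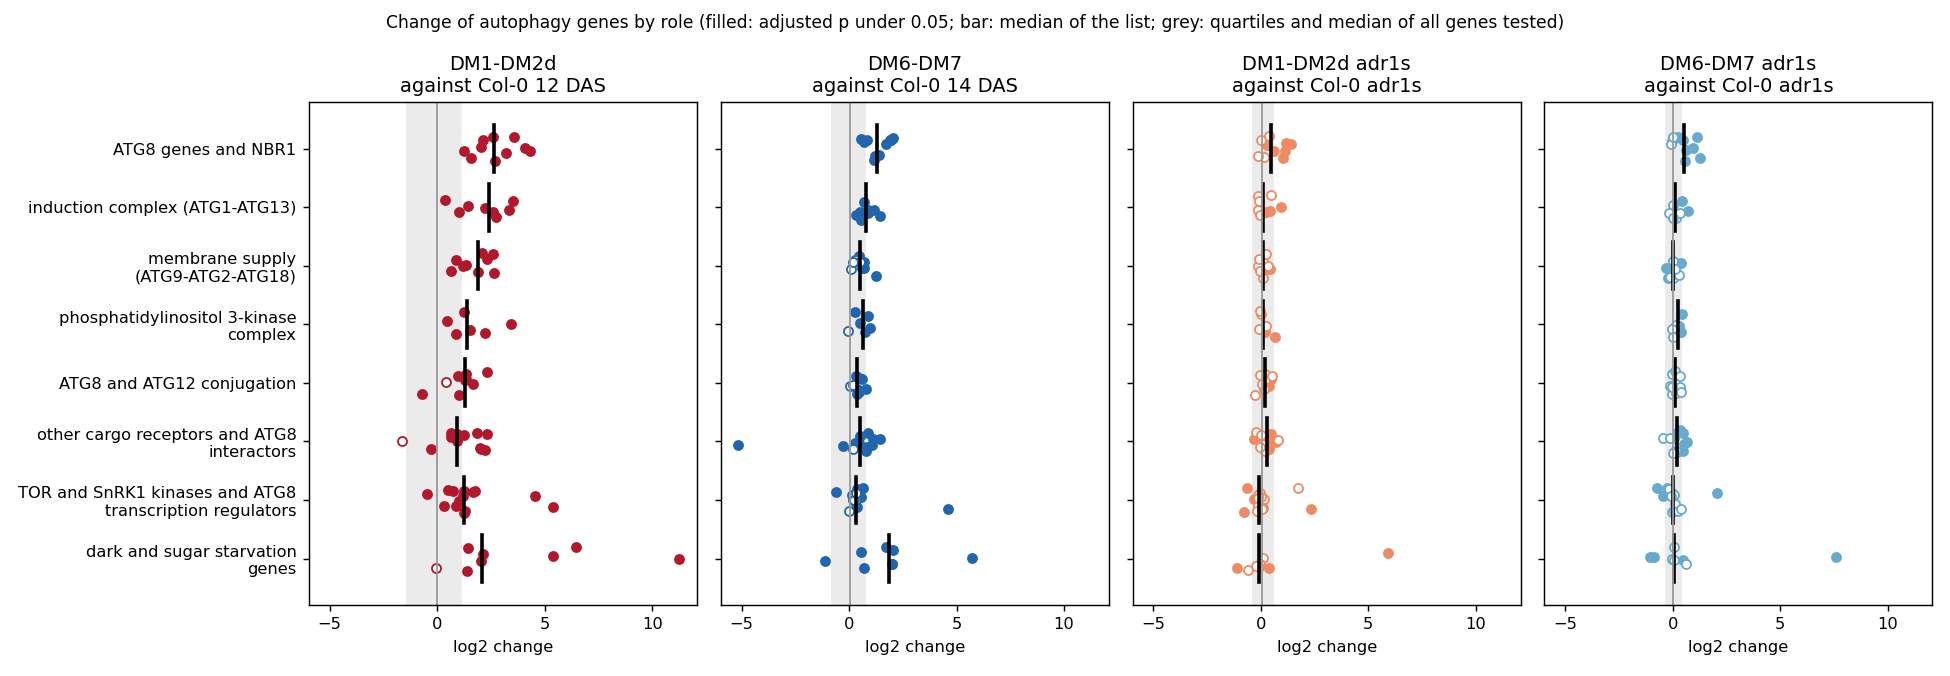
Log2 change of each autophagy gene by role, with 1 panel per line; filled points passed the test, black bars are list medians, and the grey band and line are the quartiles and median of all genes tested. The ATG8 genes and NBR1 have the highest list median in DM1-DM2d, 2.64, and the starvation list the highest in DM6-DM7, 1.86; in the adr1s lines most medians lie within the grey band. The farthest point on the right is DIN2, which had at most 1.86 CPM in any Col-0 library, so its fitted changes are no bounds.

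TGA9 is a bZIP transcription factor reported in Arabidopsis to raise ATG8 gene expression, and TGACG is the core of the sites bound by its family. TGA9 stood at 9.0, 10.2 and 9.0 CPM in DM1-DM2d, against 0.211 and 0.239 CPM in Col-0 12 DAS, and at 7.78, 10.2 and 6.83 CPM in DM6-DM7, against 0.320, 0.428 and 0.270 CPM in Col-0 14 DAS. Its log2 changes were 5.38 ± 0.39 in DM1-DM2d and 4.59 ± 0.303 in DM6-DM7, larger than that of any ATG8 gene, from a low level. In adr1s plants it changed by 2.32 ± 0.338 with DM1-DM2d and by 2.04 ± 0.342 with DM6-DM7, but stayed at or below 1 CPM. The 250 bases before each gene start were searched on both strands for TGACG, for TTGAC, the core of sites bound by WRKY factors, and for CACGTG, the G-box. The windows of ATG8A and ATG8E, both among the 4 most changed genes in DM1-DM2d, and of NBR1 are shown, 5′ to 3′ on the gene's strand and ending at the base before its start, with capitals marking TGACG or TTGAC on either strand. They come from the RefSeq sequence of TAIR10.1, at chr4:11655312-11655561 (plus strand) for ATG8A, chr2:18624014-18624263 (plus strand) for ATG8E and chr4:12740782-12741031 (plus strand) for NBR1.

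ATG8A: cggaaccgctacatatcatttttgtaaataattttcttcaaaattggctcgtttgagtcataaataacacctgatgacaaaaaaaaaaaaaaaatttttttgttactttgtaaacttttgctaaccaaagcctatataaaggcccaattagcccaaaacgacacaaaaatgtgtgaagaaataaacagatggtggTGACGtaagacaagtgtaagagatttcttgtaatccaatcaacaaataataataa
ATG8E: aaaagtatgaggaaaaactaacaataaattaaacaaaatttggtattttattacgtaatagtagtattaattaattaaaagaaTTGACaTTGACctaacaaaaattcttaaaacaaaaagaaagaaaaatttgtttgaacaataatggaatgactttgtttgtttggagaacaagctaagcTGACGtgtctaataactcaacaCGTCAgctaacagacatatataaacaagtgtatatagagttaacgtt
NBR1: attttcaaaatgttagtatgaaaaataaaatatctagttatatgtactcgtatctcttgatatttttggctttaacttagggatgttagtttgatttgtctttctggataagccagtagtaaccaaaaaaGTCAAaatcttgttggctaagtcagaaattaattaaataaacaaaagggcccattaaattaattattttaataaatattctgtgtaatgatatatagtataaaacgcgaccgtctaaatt

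ATG8A holds 1 TGACG, 55 bases before the gene start. ATG8E holds a pair of them, 1 on each strand, at 69 and 47 bases before the start, and a pair of TTGAC at 167 and 161 bases before it. NBR1 holds 1 TTGAC and no TGACG. Over the 10 genes TGACG was present in 6 windows, those of ATG8A, ATG8E, ATG8F, ATG8G, ATG8H and ATG8I, and in 18.58% of the windows of 27443 genes. TTGAC was present in 3, against 44.93% of all windows, and CACGTG in none, against 6.486%. Of the genes that held TGACG, ATG8A, ATG8G and ATG8I were called higher in all 4 lines, but ATG8E, ATG8F and ATG8H in neither adr1s line. ATG8B and ATG8D, which held no TGACG in this window, were called higher in all 4 lines. Several of these calls in adr1s lines were lost when 1 library was left out, as given above. ATG8F, which rose least in DM1-DM2d, held a pair. The windows of ATG8H and ATG8I run into the neighbouring genes AT3G06430 and AT3G15585. A match describes these letters and is not evidence of binding.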

How the data were processed

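The authors deposited a table of raw read counts per gene for 20 libraries of strand-specific paired-end reads. Per the submitters' processing notes, the tools named with the build TAIR10 include featureCounts 2.0.1, HISAT2 2.2.1, DESeq2 1.34.0 and fastp 0.23.2, and the counting options, strand included, are not given in the sources used here. Between 64.87% and 77.98% of counts below 20 were even. Libraries held 48360933 to 127276992 counts, and 3 counts, the limit that a count of 0 allows, equal 0.0236 to 0.062 CPM. These limits cover counting error only. They take each count as independent, and would be too low if the 2 reads of a pair were counted separately.

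Genes with low counts were removed (minimum count 10), which left 23349. Counts were scaled by TMM (factors 0.723 to 1.247) and all 7 groups were fitted together in edgeR 4.0.16 under R 4.3.3 by the quasi-likelihood test, with Benjamini-Hochberg adjustment over all genes tested and a threshold of 0.05. Differences between effects were contrasts in that fit. The labels call replicates biological without naming separate cultures, so p-values measure the spread between these libraries, which may be technical. DESeq2 1.42.0, other scalings and filters, a replicate block and leaving out each library were alternatives. In simulated counts with 100 genes changed per fold size, run on 22709 genes, the test recovered 55% of 2-fold and 76% of 4-fold changes for DM1-DM2d against Col-0 12 DAS. Across the simulated comparisons 2.72% to 6.25% of calls were false. The changed genes were few and drawn from all levels, while 17045 of 23349 genes were called in the real comparison. These rates therefore describe the simulation and not the power for the members.

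All 10 members are named in every comparison. From each other list, the rule allowed naming, per line, the 3 called genes of smallest adjusted p that moved as most of the list did, plus 1 that moved the opposite way; TSPO falls outside it. The members and lists were chosen with earlier results of these data known. Sequences and coordinates come from RefSeq's TAIR10.1, matched by gene identifier.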

Additional observations from a re-analysis of the deposited data

Results flagged for a closer look

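The effect of the DM1-DM2d pair differed between plants with intact ADR1 genes and adr1s plants for all 10 genes by edgeR's quasi-likelihood test of the difference. On the log2 scale the effect in DM1-DM2d minus that in DM1-DM2d adr1s was 3.968 for ATG8H, 3.30 for ATG8E, 3.081 for ATG8A, 2.407 for ATG8B and 1.737 for ATG8I. It was 1.507 for ATG8G, 1.473 for ATG8D, 1.409 for ATG8C, 1.274 for NBR1 and 1.234 for ATG8F.

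The effect of the DM6-DM7 pair differed in the same way for 8 genes. The effect in DM6-DM7 minus that in DM6-DM7 adr1s was 1.434 for ATG8E, 1.324 for ATG8B, 1.107 for ATG8A and 0.8247 for ATG8H. It was 0.764 for ATG8F, 0.6964 for ATG8G, 0.6444 for NBR1 and 0.5745 for ATG8I. Knockout and batch cannot be told apart in either set.

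The effects of the pairs also differed from each other in plants with intact ADR1 genes, where gene pair, age and batch cannot be told apart. The difference, DM1-DM2d effect less DM6-DM7 effect, was 3.488 for ATG8H, 2.063 for ATG8A, 1.791 for ATG8E, 1.651 for ATG8B and 1.009 for ATG8C. It was 0.9353 for ATG8G, 0.8931 for ATG8I, 0.8778 for ATG8D, 0.7525 for NBR1 and 0.5236 for ATG8F. The 3 sets share libraries and are not independent of each other. No group held enough libraries for a single library to be tested as standing apart.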

How the results depend on the processing

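All calls of the 10 genes in DM1-DM2d against Col-0 12 DAS, in DM6-DM7 against Col-0 14 DAS and in the DM1-DM2d difference with adr1s held in all alternatives. In DM6-DM7 adr1s against Col-0 adr1s, 4 members were called at an adjusted p of 0.01 in place of 7, and 4 to 7 when 1 library was left out. Between DM1-DM2d adr1s and DM6-DM7 adr1s, where none was called, DESeq2 called 1, a fit of those groups alone 2, and leaving out 1 library 0 to 2. The values that changed sign all lay near 0 and never passed the test. When 1 library was left out, ATG8F lay between -0.08954 and 0.06057 in DM1-DM2d adr1s and between -0.1201 and 0.007225 in DM6-DM7 adr1s. ATG8H in DM6-DM7 adr1s was at -0.02063 with RLE scaling, -0.03608 with upper-quartile scaling, -0.02057 in DESeq2, -0.0139 in the fit of those groups alone, and between -0.08265 and 0.112 when 1 library was left out. Between the adr1s lines, leaving out 1 library gave -0.08434 to 0.224 for ATG8A, -0.1956 to 0.04519 for ATG8D, -0.03474 to 0.09624 for ATG8F and -0.03973 to 0.1663 for NBR1. The cause of these changes was not tested. Upper-quartile scaling moved the median of all genes by -0.302 in DM1-DM2d and -0.178 in DM6-DM7.

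Replicate numbers showed no clear pairing over all batches: of 14 same-numbered pairs 3 correlated above 0.1, with r from -0.109 to 0.178. Between DM6-DM7 and Col-0 14 DAS, same-numbered pairs had r of 0.105, 0.0437 and 0.14, and other pairs -0.109 to 0.00441. With 2 or 3 libraries per group the deviations from the group mean depend on each other, so this check cannot exclude pairing. With the replicate block 1 member was called between the adr1s lines in place of none, 9 in place of 10 in the comparison of the DM1-DM2d with the DM6-DM7 effect, and 6 in place of 7 in DM6-DM7 adr1s. The 10 members had at least 187 counts in every library.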
